A study of Mus musculus with 5 samples.

Results

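Efemp1-type fibroblasts are a kind of mammary tumour fibroblast that was delimited here by counts of 15 genes in single cells. A cell counted as a fibroblast when, per 10000 of its unique molecular identifiers (UMIs, tags that each mark 1 captured transcript), the collagen I and III genes Col1a1, Col1a2 and Col3a1 reached 30 together, the epithelial genes Krt8, Krt18 and Epcam stayed below 8 together and the pericyte gene Rgs5 stayed below 5. It counted as Efemp1-type when Clec3b, Efemp1, Dpt and Tnxb together exceeded Cilp, Thbs4, Lrrc15 and Tnc together. The cells were thus chosen by their own counts. The rule selected 675 of 1196 fibroblasts, among 15958 cells in all. Fibroblasts with the opposite inequality, called Cilp-type here, numbered 488, and the other 33 fibroblasts had equal sums. These 15 genes chose the cells, so their levels are a description and support nothing.

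The cells came from mammary tumours of PyMT mice, in which the polyoma middle T antigen drives mammary carcinoma, and the study compared platforms for single-cell RNA sequencing. Every group shares this model. There were 5 libraries. In each, a tumour digest was enriched for viable cells. Fresh 10x 1 and fresh 10x 2 were fresh digests on 10x Genomics 3' v2, where cells are caught in droplets. Stored 10x was a digest kept overnight at 4 °C (24 h by its title), after which viability was lower by at least 20%, on the same platform. BD 1 (fresh) and BD 2 were run on BD Rhapsody, which catches cells in microwells. The labels of BD 2 conflict, since its title says fresh and its files are named for 24 h, so it is given as its own group. No strain, age or number of mice is stated in what was used here, nor whether libraries came from separate animals, and p-values measure the spread between these libraries. Each storage state and platform came with its own libraries, and tumour, storage and platform cannot be told apart. Lists of 5 values below are in the order fresh 10x 1, fresh 10x 2, stored 10x, BD 1 and BD 2.

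Fibroblasts make and remodel the collagen-rich matrix of the mammary stroma and of tumours. Those of the outer vessel wall and of loose connective tissue typically carry Pi16, Dpp4, Ly6a and Cd34 with matrix proteins such as dermatopontin (Dpt) and tenascin X (Tnxb), and they are often described as a reserve from which other fibroblasts arise. Activated fibroblasts of tumours instead make contractile proteins, fibrillar and network-forming collagens and matricellular proteins such as periostin and tenascin C. In the genes that chose the cells, EFEMP1 (fibulin 3) is an elastic-fibre associated glycoprotein, CLEC3B (tetranectin) binds plasminogen, CILP is a matrix protein of cartilage and fibrotic tissue, and LRRC15 is a surface protein of activated fibroblasts. On mouse build GRCm38 (mm10), GENCODE places Efemp1 at chromosome 11, 28853204 to 28926743 on the plus strand and Clec3b at chromosome 9, 123150946 to 123157432 on the plus strand.

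The label was set beside 2 marker genes outside the rule, C3 and Ogn, and markers of fibroblasts and of other cells. C3, the central component of complement (chromosome 17, 57203970 to 57228136 on the minus strand), stood at 1865, 1589.5, 2058, 1788 and 1622 counts per 1000000 UMIs (CPM, of the summed UMIs of a kind in a library) in Efemp1-type cells and at 152, 139, 156, 212 and 225 in Cilp-type cells. Ogn, osteoglycin, a small proteoglycan that binds collagen (chromosome 13, 49608046 to 49624501 on the plus strand), stood at 519.8, 805, 708, 1379 and 1750.3 against 136, 158, 170.3, 501 and 477. For both genes, every Efemp1-type value lay above every Cilp-type value. The 8 general fibroblast markers, such as Pdgfra, Dcn and Lum, were all present in Efemp1-type cells of each library, with a summed level of 14834 to 17683 CPM. In epithelial cells of the same libraries that sum was 19.8 to 45.5. The label thus went with these markers in each library. C3 and Ogn were chosen with earlier results of these data known. Fibroblasts and epithelial cells were divided by collagen counts, so their gap was set in part by selection. These levels are a description, not an independent check.

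Epithelial markers summed to 343, 447, 1065, 675 and 598 CPM, against 27386 to 35534 in epithelial cells, and to 339, 409.8, 1059.9, 588 and 511 in Cilp-type cells. The level was thus nearly the same in both kinds within a library and was highest in stored 10x. Krt8, Krt18 and Epcam are among these markers, and the rule capped them in both kinds. Epithelial cells were chosen by a minimum of the same genes. The gap to epithelial cells was thus set in part by selection, and the likeness of the kinds may be too. Endothelial markers summed to 201, 6.78, 40.4, 6.32 and 4.27, and 1 of 35 Efemp1-type cells of fresh 10x 1 had 2 or more of them, as did 2 of 217 in stored 10x and 1 of 227 in BD 1. Macrophage markers summed to 15.3, 20.3, 72.1, 19.8 and 87, with 2 or more of them in 0, 1, 16, 8 and 3 Efemp1-type cells. Mural markers summed to 197, 175, 145, 169 and 169, above the 85.3, 56, 83, 115 and 159 of Cilp-type cells in each library. Abcc9, a channel subunit in that mural list, gave 41.5 to 105 of it, while Des was at 0 in 3 libraries and Higd1b in 4. Rgs5, also in that list, was capped by the rule in both kinds. The adipocyte markers Adipoq, Plin1, Cidec, Retn and Car3 were all at 0 in fresh 10x 1 and 2 and summed to at most 8.06. No full cell barcode was shared between any 2 of the 5 libraries.

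Efemp1-type cells were 35, 38, 217, 227 and 158 in number. As a share of fibroblasts they made up 16.2% (exact 95% binomial interval 11.6 to 21.8) of 216 in fresh 10x 1 and 27.9% (20.6 to 36.3) of 136 in fresh 10x 2. In stored 10x they were 73.3% (67.9 to 78.3) of 296, in BD 1 69.8% (64.5 to 74.8) of 325 and in BD 2 70.9% (64.4 to 76.7) of 223. The fresh 10x libraries averaged 22.1% ± 8.30 (SD, n = 2), and the others lay 51.2, 47.8 and 48.8 percentage points above that mean. Both fresh 10x libraries were therefore mostly Cilp-type and the other 3 mostly Efemp1-type, with intervals that did not meet. With 1 library in each of the other groups, and with the share set by the rule, no test was made. Of all cells in a library, Efemp1-type cells were 1.69, 1.97, 5.43, 6.02 and 3.77%.

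**Figure D1:**
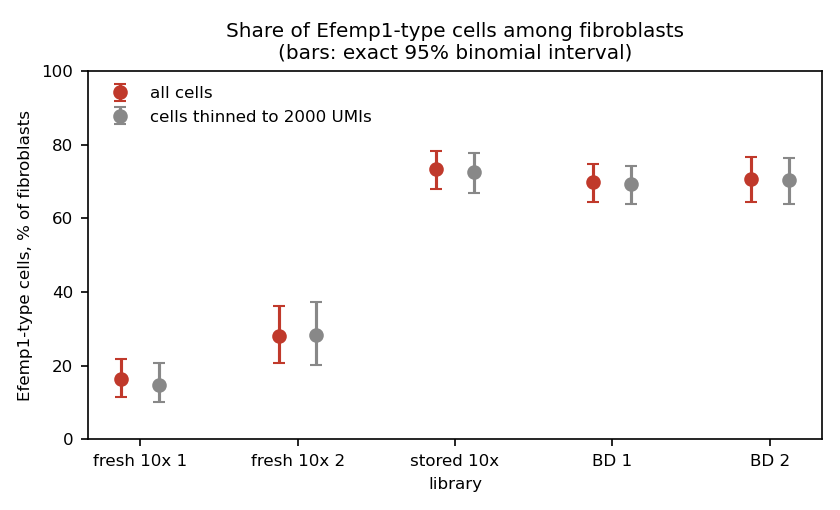
Percent of fibroblasts that were Efemp1-type (vertical axis, from 0) in each library (horizontal axis), from all cells (red) and from cells thinned to 2000 UMIs (grey), with exact 95% binomial intervals. Fresh 10x 1 and 2 lie at 16.2% and 27.9% and the other 3 libraries between 69.8% and 73.3%.

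In cells thinned to 2000 UMIs, which leaves out shallower cells, the shares were 14.8, 28.2, 72.5, 69.3 and 70.5%. The 5 libraries held 2, 2, 3, 2 and 2 Efemp1-type cells within 3 UMIs per 10000 of the dividing line. The innermost of them in fresh 10x 1 had 2.68 of the Clec3b set against 2.29 of the Cilp set per 10000, and the nearest Cilp-type cell had 1.08 against 2.15. The median Efemp1-type cell lay far from it, with 36.1 to 75.8 of the Clec3b set and 0.361 to 2.96 of the Cilp set per 10000, while the median Cilp-type cell had 0.536 to 9.95 and 27.4 to 53.6. Cells with equal sums in the fresh libraries were shallow, with a median of 266 UMIs over 16 cells in fresh 10x 1 and of 210 over 11 cells in fresh 10x 2. A deposited matrix that pools fresh 10x cells, most of which are in neither library's own matrix, gave 19.9% for cells with the prefix of fresh 10x 1 and 37.0% (29.6 to 45.0) for those of fresh 10x 2. Intervals cover counting error only.

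In depth and quality the kinds differed on average by less than the spread over libraries. Median UMIs per Efemp1-type cell were 13340, 14720.5, 11160, 18965 and 16347. The log2 ratio to Cilp-type cells was 0.0999 ± 0.192 (SD, n = 5; exact sign-flip permutation test over libraries, two-sided p = 0.3125). The median percent of mitochondrial UMIs, which rises in damaged cells, was 4.03, 3.17, 3.97, 5.80 and 7.41 in Efemp1-type cells, lower than in Cilp-type cells in 4 of 5 libraries, by 0.459 points on average (difference -0.459 ± 0.479, SD, n = 5; same exact test, p = 0.1875). Median genes in 2000 UMIs were 1021, 1032, 1030, 1095 and 1055, a mean difference of -7.75 ± 47.0 (SD, n = 5; same exact test, p = 0.75) from Cilp-type cells. With 5 libraries this test cannot reach 0.05, and the smallest p it allows, rounded, is 0.062. The gene count went in opposite directions by platform, lower than in Cilp-type cells in all 3 10x libraries and higher in both BD libraries.

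**Figure D2:**
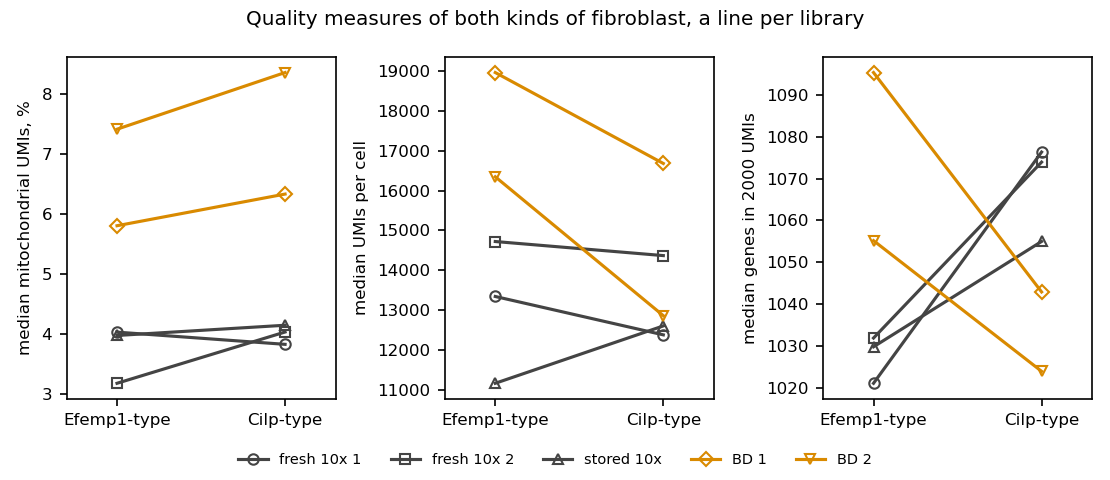
Median percent of mitochondrial UMIs (left), median UMIs per cell (middle) and median genes expected in 2000 UMIs (right) in Efemp1-type and Cilp-type cells, with a line per library (10x grey, BD orange; the axes do not start at 0). The lines for genes fall from Efemp1-type to Cilp-type in BD 1 and BD 2 and rise in the 3 10x libraries, whose Efemp1-type medians are 1021, 1032 and 1030.

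To compare the kinds gene by gene, UMIs were summed over the cells of each kind in each library, and the 10 sums were fitted with edgeR's quasi-likelihood test with the library as a block and Benjamini-Hochberg adjustment over 9468 genes, the rule's genes left out. Fold changes below are Efemp1-type relative to Cilp-type from this fit, and levels are CPM. At an adjusted p under 0.05, 1192 genes (12.6%) were higher and 1126 (11.9%) were lower in Efemp1-type cells. The direction was the same in all 5 libraries for 2060 of these 2318 genes, and 443 were at least 2-fold higher and 432 at least 2-fold lower. The values of the kinds did not overlap over the libraries, with Efemp1-type above, for 397 genes (4.19%) and, with Efemp1-type below, for 484 (5.11%), whether called or not. The median log2 fold change of all genes tested was 0.01. The rule divided these same cells on counts, so genes that vary with the rule's genes differ by construction, and a p-value here says only whether a difference repeated over libraries. With the 10x libraries alone, 696 and 652 genes passed, and 979 and 966 did so with the BD libraries alone. In what follows, higher and lower are used of genes that passed this test. The counts given for each gene list stand beside the 12.6% higher and 11.9% lower of all genes tested.

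Among the 12 genes with the largest rises by the naming rule, several code for secreted proteins of innate defence. C3 was higher by a log2 fold change of 3.38 ± 0.14 SE, adjusted p = 2.6e-09. Lbp, the lipopolysaccharide-binding protein, stood at 1304, 1493, 1104, 749 and 517 CPM against 158, 185, 117, 54.4 and 64.8 (log2 fold change 3.24 ± 0.12 SE, adjusted p = 2.4e-09). Ptx3, the long pentraxin that marks microbes and damaged matrix for clearance, stood at 269, 507, 359.6, 429 and 261 against 23.4, 114, 6.38, 36.5 and 43.2 (log2 fold change 3.22 ± 0.28 SE, adjusted p = 1.66e-06). In all 3, each Efemp1-type value lay above each Cilp-type value, although Ptx3 of Cilp-type cells varied from 6.38 to 114.

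Signalling genes formed another part of the 12. Adm, which codes for the vessel-dilating peptide adrenomedullin, stood at 478, 857, 442, 947 and 1137 CPM against 37, 70.4, 28.7, 164 and 86.4 (log2 fold change 3.44 ± 0.18 SE, adjusted p = 1.96e-08). Vegfd, a growth factor for lymphatic vessels, stood at 207, 275, 251, 665 and 503 against 10.8, 28, 23.4, 86 and 63.7 (log2 fold change 3.29 ± 0.16 SE, adjusted p = 9e-09). Both were well separated, with the highest Cilp-type value below the lowest Efemp1-type value. Sfrp4, a secreted WNT antagonist, stood at 793, 763, 907, 623 and 369 against 16.4, 6.06, 125, 68 and 139 (log2 fold change 3.57 ± 0.51 SE, adjusted p = 0.00014), with Cilp-type values spread from 6.06 to 139. Its log2 fold change was 4.20 without BD 2, 4.69 on 10x alone and 2.29 on BD alone. Npr1, the receptor of atrial natriuretic peptide, stood at 17.5, 23.7, 54.6, 185 and 190.3 against 2.34, 2.27, 5.32, 18.5 and 20.5 (log2 fold change 3.26 ± 0.14 SE, adjusted p = 4.42e-09). The Npr1 groups overlapped, with higher values of both kinds in the BD libraries, and Efemp1-type cells lay above Cilp-type cells in each library.

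The others of the 12 code for matrix, lipid and uptake proteins. Prg4, which codes for the lubricant proteoglycan lubricin, stood at 373, 793, 299, 780.5 and 536 CPM against 10.8, 37.1, 30.9, 63.7 and 105 (log2 fold change 3.67 ± 0.28 SE, adjusted p = 4.4e-07). Pcolce2, an enhancer of procollagen processing, stood at 240.2, 352, 416, 494 and 438 against 17.8, 37.1, 33, 40.3 and 44.3 (log2 fold change 3.53 ± 0.11 SE, adjusted p = 1.49e-09). Scara5, a scavenger receptor that binds ferritin, stood at 85.2, 89.8, 123, 215 and 136 against 4.69, 3.79, 11.7, 15.2 and 16.2 (log2 fold change 3.73 ± 0.17 SE, adjusted p = 5.18e-09). No value of one kind reached the range of the other in these 3 genes. Fabp4, a fatty acid binding protein also made by adipocytes and capillary endothelium, stood at 236, 96.6, 178, 121 and 73 against 21.6, 15.9, 12.8, 2.72 and 2.16 (log2 fold change 3.77 ± 0.23 SE, adjusted p = 7.02e-08). Its highest value was in fresh 10x 1, where the endothelial markers were also highest, and its log2 fold change was 3.91 without cells carrying endothelial or leukocyte genes. Sbsn, suprabasin, a secreted protein first known from keratinocytes, stood at 201, 320.3, 219.6, 118 and 69.1 against 15.9, 14.4, 17, 13.6 and 16.2 (log2 fold change 3.55 ± 0.21 SE, adjusted p = 5.55e-08). On 10x alone and on BD alone the log2 fold change was 4.34 and 2.98 for Prg4, 3.38 and 5.29 for Fabp4 and 4.00 and 2.70 for Sbsn. For Prg4 and Sbsn the kinds were thus farther apart on 10x, and for Fabp4 on BD, differences that did not pass the interaction test below.

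**Figure D3:**
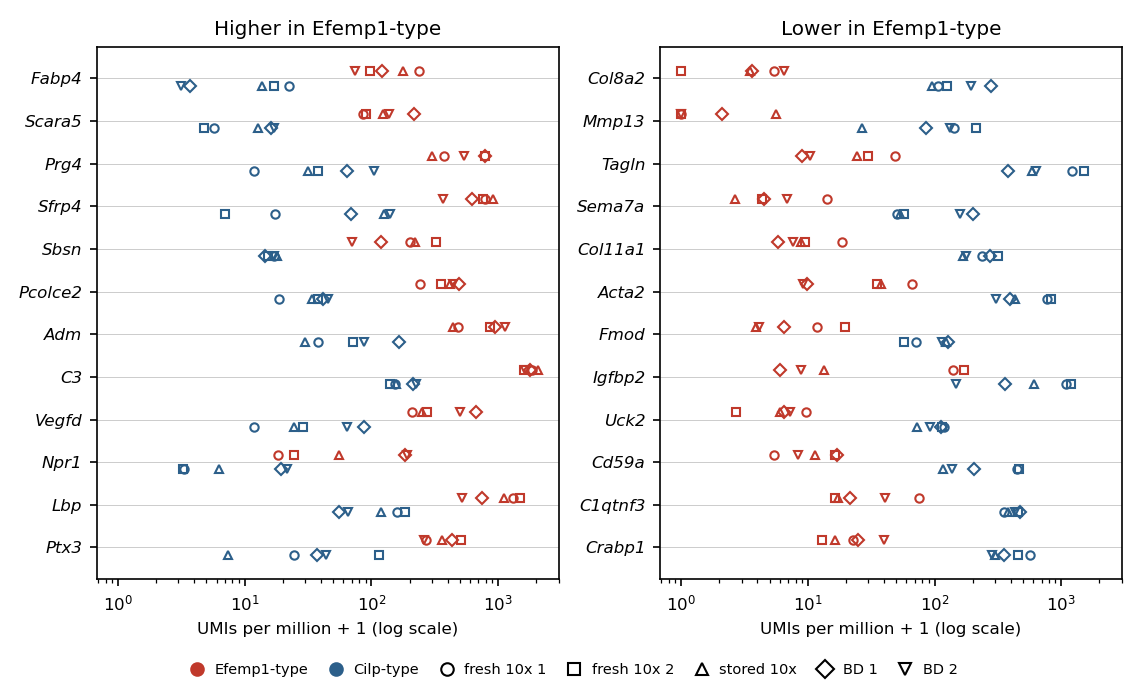
CPM plus 1 (horizontal, log scale) of the 12 genes with the largest rises (left) and the 12 with the largest falls (right) by the naming rule, in Efemp1-type (red) and Cilp-type (blue) sums, a symbol per library. The colours do not overlap for 11 of 12 genes on the left and 11 of 12 on the right, with Npr1 and Igfbp2 as the exceptions, against 4.19% and 5.11% of all genes tested. The genes were chosen for large changes in the same direction in all 5 libraries, so this separation follows in part from the choice.

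Genes of contraction and of collagens were among the 12 largest falls. Tagln (transgelin, an actin-binding protein of smooth muscle) stood at 48, 28.8, 23.3, 8.06 and 9.32 CPM in Efemp1-type cells against 1210.2, 1506, 591, 380.0 and 634 in Cilp-type cells (log2 fold change -5.28 ± 0.19 SE, adjusted p = 2.4e-09). Acta2, smooth muscle actin, stood at 65.5, 33.9, 37.1, 8.93 and 8.16 against 771, 834, 432, 395 and 307 (log2 fold change -4.41 ± 0.26 SE, adjusted p = 4.53e-08). Both were lower in every library, and in both the small amount left in Efemp1-type cells was highest in fresh 10x 1. Col8a2, a chain of the network-forming collagen VIII, stood at 4.37, 0, 2.5, 2.61 and 5.44 against 106, 125, 94.7, 276 and 193 (log2 fold change -5.87 ± 0.23 SE, adjusted p = 2.6e-09). Col11a1, a chain of fibrillar collagen XI, stood at 17.5, 8.47, 7.92, 4.79 and 6.6 against 237, 314, 166, 274 and 176 (log2 fold change -4.95 ± 0.21 SE, adjusted p = 4.05e-09). Mmp13, a collagenase, had 16 UMIs over all Efemp1-type cells and none in 3 libraries, at 0, 0, 4.58, 1.09 and 0 CPM against 141, 209.8, 25.5, 84.9 and 131 (log2 fold change -5.83 ± 0.47 SE, adjusted p = 6.85e-07). The Mmp13 value rested in part on stored 10x, where Cilp-type cells had least and Efemp1-type cells most, and was -7.39 without it. Without BD 1, Col8a2 was at -5.22. On 10x alone and on BD alone the log2 fold change was -3.77 and -5.41 for Acta2, -4.49 and -7.13 for Mmp13 and -4.36 and -5.44 for Col11a1.

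The remaining falls were in genes of varied roles. Fmod, fibromodulin, which binds collagen fibrils, stood at 10.9, 18.6, 2.92, 5.45 and 3.11 CPM against 69.8, 56, 121, 126 and 114 (log2 fold change -4.32 ± 0.33 SE, adjusted p = 4.77e-07). Sema7a, a membrane-anchored semaphorin, stood at 13.1, 3.39, 1.67, 3.49 and 5.83 against 49.2, 56, 52.1, 200.3 and 159 (log2 fold change -4.99 ± 0.30 SE, adjusted p = 6.12e-08). Cd59a, an inhibitor of the membrane attack complex of complement, stood at 4.37, 15.3, 10.4, 15.9 and 7.38 against 444, 467, 115, 205 and 136 (log2 fold change -4.10 ± 0.21 SE, adjusted p = 1.6e-08). All 3 were separated without overlap. Crabp1, a retinoic acid binding protein, stood at 21.8, 11.9, 15.4, 24 and 38.8 against 561, 457, 298, 353 and 284 (log2 fold change -3.88 ± 0.21 SE, adjusted p = 2.72e-08). C1qtnf3, a secreted protein with a C1q domain, had 15.3 to 74.3 against 351 to 473 (log2 fold change -3.89 ± 0.27 SE, adjusted p = 1.86e-07), and Uck2, a kinase of uridine and cytidine, had 1.69 to 8.74 against 72.4 to 117 (log2 fold change -4.13 ± 0.18 SE, adjusted p = 4.05e-09). Igfbp2, a carrier of insulin-like growth factors, stood at 139.8, 171, 12.5, 5.01 and 7.77 against 1086, 1187, 607, 358 and 147 (log2 fold change -4.14 ± 0.40 SE, adjusted p = 4.43e-06), with overlapping groups. Without the library block Igfbp2 missed the threshold (adjusted p = 0.0571). On 10x alone and on BD alone the log2 fold change was -3.57 and -5.48 for Igfbp2, -3.68 and -5.42 for Sema7a, -3.59 and -4.77 for Fmod and -4.53 and -3.45 for Crabp1. Sema7a was at -4.28 without BD 1.

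Of 14 genes known from adventitial and progenitor-like fibroblasts, all 14 were higher in Efemp1-type cells, with a median log2 fold change of 2.11. The list was chosen with earlier results of these data known, so its direction is not independent evidence. Ly6c1, a surface antigen of this kind of fibroblast, stood at 474, 908, 1050.3, 2247 and 2145 CPM against 30, 72.7, 145, 343 and 293 (log2 fold change 3.17 ± 0.17 SE, adjusted p = 2.14e-08). Ly6a, which codes for the stem cell antigen Sca-1, stood at 2105, 2844, 3022, 4415 and 4397 against 349, 490.1, 762, 936 and 1152 (log2 fold change 2.28 ± 0.11 SE, adjusted p = 8.47e-09). For both genes BD values were above 10x values in both kinds, and the kinds were apart in each library. Dpp4, a surface peptidase, had 91.7 to 329 against 9.84 to 80 (log2 fold change 2.60 ± 0.19 SE, adjusted p = 3.09e-07), and Cd34, a sialomucin, had 473 to 1293 against 53.9 to 618 (log2 fold change 1.88 ± 0.25 SE, adjusted p = 6.35e-05). Pi16, a secreted peptidase inhibitor often used to name these fibroblasts, differed less, at 1125, 1346, 1137, 997 and 644 against 553, 407, 765, 492 and 428 (log2 fold change 1.01 ± 0.14 SE, adjusted p = 0.000113). Cd55, Sema3c, Ackr3, Has1, Anxa3, Procr, Cd248 and Limch1 were higher in all 5 libraries, and Wnt2 in 4 of 5. Wnt2 did not pass without fresh 10x 1, fresh 10x 2 or BD 1.

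Genes of another described kind of fibroblast, with Col15a1 and basement membrane genes, did not move together. Of 9 tested, 4 were higher, 2 lower and 3 did not pass, with a median of 0.03. Besides Fabp4, the higher ones were Cxcl12, Lpl and Penk. Lpl, lipoprotein lipase, stood at 740.3, 757, 909.5, 1953 and 1918 CPM against 363, 218, 239, 591 and 521 (log2 fold change 1.70 ± 0.12 SE, adjusted p = 1.44e-07). Col15a1 itself, the core of a basement membrane proteoglycan, was lower, at 234, 134, 213, 413 and 464 against 421, 396, 546, 1530.2 and 1607 (log2 fold change -1.50 ± 0.14 SE, adjusted p = 2.91e-06). Within each library Col15a1 was lower in Efemp1-type cells, although its ranges over libraries overlapped, with higher BD values in both kinds.

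Complement genes were mostly higher: of 12 tested, 10 were higher, 1 lower and 1 did not pass, with a median of 1.42. C4b, the other thioester component, stood at 1511, 1552, 1418, 2287 and 2024 CPM against 152, 148, 233, 393 and 396 (log2 fold change 2.85 ± 0.15 SE, adjusted p = 2.21e-08). C1s1, a protease of the first complex, stood at 380.0, 388, 446, 1533 and 1409 against 106, 121, 127, 462 and 481 (log2 fold change 1.74 ± 0.09 SE, adjusted p = 1.38e-08), and Cfb, the alternative-pathway protease, at 76.4, 74.6, 32.9, 4.36 and 3.88 against 7.96, 9.09, 10.6, 1.09 and 1.08 (log2 fold change 2.71 ± 0.29 SE, adjusted p = 1.1e-05). Cd55, which speeds decay of the convertases, was higher (185 to 412 against 22 to 81), while Cd59a, which blocks the terminal step, was the 1 gene lower. The list thus held both components and inhibitors among its rises, including C1ra, Serping1, Masp1 and C2.

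Inflammatory fibroblast genes included 9 higher, 2 lower and 3 that did not pass of 14 tested, with a median of 1.43. Cxcl12, a chemokine that retains leukocytes and stem cells, stood at 1308, 1215, 947, 987 and 1044 CPM against 125, 186, 148, 157 and 242 (log2 fold change 2.73 ± 0.15 SE, adjusted p = 2.77e-08). Il6, a cytokine of acute inflammation, was scarce but higher, at 21.8, 16.9, 29.2, 82.8 and 83.1 against 10.3, 3.03, 7.45, 13.6 and 10.8 (log2 fold change 2.34 ± 0.22 SE, adjusted p = 2.55e-06). In the wider list of 17 chemokines and cytokines, 5 were higher, 5 lower and 7 did not pass. Kitl, the ligand of the receptor KIT, was among the higher ones (106 to 206 against 12.8 to 44.3; log2 fold change 2.42 ± 0.15 SE, adjusted p = 8.78e-08), and Ccl2, which attracts monocytes, among the lower ones (122 to 307 against 291 to 512; log2 fold change -1.14 ± 0.18 SE, adjusted p = 0.000323). Lif, a cytokine of the interleukin 6 family, was lower (1.96 to 6.78 against 10.6 to 29.2; log2 fold change -2.46 ± 0.35 SE, adjusted p = 0.00014), by -1.45 on 10x alone and -3.31 on BD alone.

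Of 5 genes tested from a list for antigen-presenting fibroblasts, 1 was higher and 3 were lower. Saa3, an acute-phase serum amyloid protein, was higher, at 1341, 175, 1332, 251 and 464 CPM against 174, 53, 52.1, 108 and 118 (log2 fold change 2.50 ± 0.36 SE, adjusted p = 0.000158). Its level came from few cells, since the top 10% of Efemp1-type cells held 90.9 to 99.8% of its UMIs over the libraries. The MHC class II genes Cd74, H2-Aa and H2-Ab1 were lower, Cd74 at 24, 5.08, 104, 12.9 and 67.2 against 21.6, 12.1, 295, 12.5 and 278 (log2 fold change -1.35 ± 0.25 SE, adjusted p = 0.001). Cd74 was lower in 3 libraries and not in fresh 10x 1 or BD 1. Macrophage markers, whose cells carry these genes, were also lower in Efemp1-type than in Cilp-type cells in each library (15.3, 20.3, 72.1, 19.8 and 87 against 32.8, 90.1, 189, 29.9 and 171), and without the cells with endothelial or leukocyte genes Cd74 (-0.29, adjusted p = 0.425), H2-Aa (-0.68, adjusted p = 0.221) and H2-Ab1 (-0.23, adjusted p = 0.66) did not pass. The part of macrophages in these differences was not tested. The log2 fold change of Saa3 was 3.21 on 10x alone and 1.53 on BD alone.

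A list of collagen genes, which leaves out those of the rule and Col8a2 given above, was mostly lower. Of its 16 genes, all tested, 11 were lower, 1 was higher and 4 did not pass, with a median log2 fold change of -0.996. Col8a1, the partner chain of Col8a2, stood at 155, 151, 189, 159 and 111 CPM against 1079, 1181, 1538, 1649 and 1577 (log2 fold change -3.20 ± 0.14 SE, adjusted p = 5.1e-09). Col12a1, a collagen that decorates fibrils under tension, stood at 393, 466, 208, 273 and 263 against 1989.8, 2393, 946, 1140.4 and 1020.5 (log2 fold change -2.15 ± 0.09 SE, adjusted p = 2.6e-09). The chains of microfibrillar collagen VI (Col6a1, Col6a2 and Col6a3) and of fibrillar collagen V (Col5a1 and Col5a2) were lower as well. Col14a1, which also decorates fibrils, was the 1 gene higher, at 1098, 1274, 1142, 1765 and 1599 against 474, 542, 530.0, 1198 and 992 (log2 fold change 0.98 ± 0.12 SE, adjusted p = 2.52e-05).

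Of 13 myofibroblast genes, 8 were lower, 2 higher and 3 did not pass (median -1.10). Besides Tagln and Acta2, the lower ones were Tpm1, Tpm2, Myl9 and Cald1 of the contractile machinery, Col12a1 and Postn. Postn, periostin, which links collagen to other matrix, stood at 1933, 1840.3, 1556, 1083 and 1006 CPM against 5369, 5272, 7140.4, 5174 and 4188 (log2 fold change -1.88 ± 0.12 SE, adjusted p = 1.26e-07). Fap, the fibroblast activation protein often used as a marker of activated fibroblasts, was slightly higher, at 118, 153, 187, 193 and 216 against 121, 105, 140.5, 165 and 179 (log2 fold change 0.31 ± 0.10 SE, adjusted p = 0.032), and so was Pdpn (log2 fold change 0.27 ± 0.09 SE, adjusted p = 0.0435). Both differences were smaller than the spread between libraries of a kind. Fap did not pass without fresh 10x 2, stored 10x, BD 1 or BD 2, and Pdpn did not pass without any 1 of fresh 10x 1, stored 10x, BD 1 and BD 2.

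Matricellular and adhesive proteins were mostly lower, 9 of 15 against 2 higher (median -0.57). Spon1, spondin 1, stood at 127, 40.7, 69.2, 74.9 and 98.6 CPM against 1021, 885, 813, 1242 and 949 (log2 fold change -3.61 ± 0.17 SE, adjusted p = 6.26e-09), and Smoc2, a calcium-binding matrix protein, at 113 to 167 against 617 to 649.8 (log2 fold change -2.19 ± 0.10 SE, adjusted p = 5.79e-09). Ctgf, a matricellular target of TGF-beta and YAP, stood at 145 to 304 against 661 to 1101 (log2 fold change -2.02 ± 0.15 SE, adjusted p = 3.1e-07). Fn1, fibronectin, was 1 of the 2 higher genes, at 3996, 4801, 5283, 4896 and 4364 against 2011, 2270, 3376, 2931 and 2307 (log2 fold change 0.90 ± 0.08 SE, adjusted p = 2.01e-06), the other being Thbs3.

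Small leucine-rich proteoglycans divided into 3 higher, 4 lower and 3 that did not pass of 10. Higher were Ogn (log2 fold change 1.94 ± 0.12 SE, adjusted p = 6.77e-08), Prelp (log2 fold change 1.53 ± 0.15 SE, adjusted p = 4.58e-06) and Dcn, decorin, which binds collagen and TGF-beta (7623 to 10555 against 3555 to 4349 CPM; log2 fold change 1.24 ± 0.09 SE, adjusted p = 1.8e-07). Lower were Fmod, Omd, Aspn, which did not pass without stored 10x or BD 1, and Bgn, biglycan (2546 to 3776 against 5490.3 to 5923; log2 fold change -0.89 ± 0.09 SE, adjusted p = 6.2e-06). Decorin and biglycan, close relatives, thus differed in opposite directions without overlap of the groups.

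Elastic-fibre genes were also mixed, with 5 higher, 6 lower and 8 that did not pass of 19. Emilin2, a glycoprotein of elastic fibres and vessels, was higher (149 to 452 against 13.6 to 104 CPM; log2 fold change 2.45 ± 0.21 SE, adjusted p = 1.16e-06), while its relative Emilin1 was lower (61.9 to 115 against 150.1 to 219; log2 fold change -1.12 ± 0.11 SE, adjusted p = 4.15e-06). Eln, elastin itself, was lower in each library, at 858, 613, 839, 813 and 1372 against 1466, 994, 1459, 3990.2 and 2788 (log2 fold change -1.09 ± 0.19 SE, adjusted p = 0.000861). Members of the family named latent TGF-beta binding proteins also parted. Ltbp1 (log2 fold change 1.69 ± 0.17 SE, adjusted p = 4.85e-06) and Ltbp4 (log2 fold change 0.71 ± 0.14 SE, adjusted p = 0.00153) were higher and Ltbp2 was lower (log2 fold change -2.36 ± 0.34 SE, adjusted p = 0.000151).

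Proteases and their inhibitors gave 6 higher, 8 lower and 4 that did not pass of 18. Mmp3, stromelysin 1, stood at 3291, 1783, 1322, 1526 and 1347 CPM against 581, 787, 435, 559.6 and 527 (log2 fold change 1.64 ± 0.16 SE, adjusted p = 4.35e-06), and Adamts5, an aggrecanase, at 463 to 961 against 116 to 257 (log2 fold change 1.88 ± 0.11 SE, adjusted p = 3.33e-08). Both were higher without overlap. Timp1, an inhibitor of metalloproteinases, was lower (919, 1073, 542, 278 and 269 against 2285, 2218, 1866, 917 and 886; log2 fold change -1.49 ± 0.11 SE, adjusted p = 4.4e-07), and Timp2, another, was higher (1122, 1266, 1419, 3345 and 2733 against 865, 969, 783, 1214 and 1144; log2 fold change 0.90 ± 0.14 SE, adjusted p = 0.000224).

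All 9 WNT ligands and regulators tested passed, 5 higher and 4 lower. The secreted antagonists Sfrp1 (572 to 1243 against 206 to 467 CPM; log2 fold change 1.45 ± 0.14 SE, adjusted p = 4.04e-06) and Sfrp2 (1132 to 1608 against 365 to 805; log2 fold change 1.18 ± 0.14 SE, adjusted p = 3.38e-05) were higher with Sfrp4, and so were the ligands Wnt16 and Wnt2. The ligands Wnt5a (10.2 to 26 against 36.2 to 92.4; log2 fold change -1.67 ± 0.22 SE, adjusted p = 7.58e-05) and Wnt11 and the Dickkopf proteins Dkk2 and Dkk3 were lower. Antagonists and ligands therefore each stood on both sides.

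In the TGF-beta and BMP list, 5 genes were higher, 6 lower and 4 did not pass of 15. Ligands were divided: Gdf10, of the BMP family, stood at 50.2, 40.7, 52.5, 103 and 103 CPM against 0.937, 10.6, 3.19, 0.544 and 15.1 (log2 fold change 3.81 ± 0.41 SE, adjusted p = 1.05e-05; 3.17 without BD 1), whereas Inhba, the activin A chain, stood at 4.37, 3.39, 5.42, 3.7 and 5.05 against 62.8, 67.4, 38.3, 27.8 and 69.1 (log2 fold change -3.30 ± 0.21 SE, adjusted p = 8.89e-08). Tgfb1 (5.45 to 37.9 against 21.2 to 165) and Tgfb3 (log2 fold change -2.42 ± 0.13 SE, adjusted p = 1.68e-08) were lower too. Tgfbr2 (log2 fold change 0.67 ± 0.08 SE, adjusted p = 2.87e-05), the signalling receptor, and Tgfbr3 (288 to 459.6 against 84.3 to 201; log2 fold change 1.57 ± 0.14 SE, adjusted p = 1.29e-06), the co-receptor betaglycan, were higher.

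Insulin-like growth factor genes gave 3 higher, 3 lower and 5 that did not pass of 11. The serine protease Htra3 was higher (373 to 1186 against 85.6 to 298 CPM; log2 fold change 1.98 ± 0.09 SE, adjusted p = 5.1e-09), as was the carrier Igfbp6 (log2 fold change 0.83 ± 0.14 SE, adjusted p = 0.000635). Igf1, the ligand, had 623 to 1026 against 535 to 1013 and an adjusted p of 0.143.

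Genes of lipid, retinoid and steroid handling were mostly higher, 10 of 15 against 2 lower and 3 that did not pass, with a median of 0.72. Apoe, the lipid-carrying apolipoprotein E, stood at 1262, 347, 1201, 548 and 478 CPM against 156, 161, 350.1, 50.6 and 244 (log2 fold change 2.08 ± 0.30 SE, adjusted p = 0.00015). Without possible doublets Apoe was at 2.80 on the log2 scale. The retinal dehydrogenases parted, with Aldh1a3 (56.8 to 221 against 19.2 to 75.7; log2 fold change 1.60 ± 0.11 SE, adjusted p = 1.86e-07) and Aldh1a1 higher and Aldh1a2 lower (1.69 to 49.3 against 57.5 to 151; log2 fold change -1.68 ± 0.31 SE, adjusted p = 0.00111). Aldh1a2 was at -2.58 on 10x alone and -1.08 on BD alone.

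Transcription factors divided evenly, with 8 higher, 8 lower and 5 that did not pass of 21. Klf4 (342 to 832 against 143 to 254 CPM; log2 fold change 1.41 ± 0.13 SE, adjusted p = 1.79e-06), a zinc-finger factor, had the largest rise, followed by Nfib, Ebf1, Ebf2 and Osr1. The runt-domain factors Runx1 (76.2 to 173 against 311 to 512; log2 fold change -1.95 ± 0.13 SE, adjusted p = 1.09e-07) and Runx2 (10.2 to 13.3 against 30.2 to 50.6; log2 fold change -1.75 ± 0.17 SE, adjusted p = 3.4e-06) were lower, as were Foxs1, Meox1 and Egr2. Among 17 receptors, 9 were higher, 3 lower and 5 did not pass. Receptors for cytokines of the interleukin 6 family (Il6ra, log2 fold change 2.24 ± 0.28 SE, adjusted p = 3.82e-05, and its partner Il6st, log2 fold change 1.01 ± 0.12 SE, adjusted p = 2.91e-05) and the growth factor receptor Egfr (log2 fold change 1.18 ± 0.09 SE, adjusted p = 4.51e-07) were higher. The platelet-derived growth factor receptors parted, with Pdgfra higher (354 to 606 against 291 to 509.5; log2 fold change 0.46 ± 0.10 SE, adjusted p = 0.00378) and Pdgfrb lower (43.6 to 104 against 129.6 to 266; log2 fold change -1.32 ± 0.12 SE, adjusted p = 1.52e-06).

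Few genes of tissue handling and none of the cell cycle passed the test. Of 10 immediate-early and heat-shock genes that rise during tissue digestion, 1 was higher and 9 did not pass, with Dusp1, a phosphatase, at a mean of 515 ± 173 CPM against 343 ± 119 (SD, n = 5 each; edgeR log2 fold change 0.61 ± 0.11 SE, adjusted p = 0.000678). Fos stood at 591 to 1850.3 against 645 to 1667, with an adjusted p of 0.434. Of the 10 cell cycle genes, 0 passed edgeR's test, 0 had an unadjusted p under 0.05 and 0 passed by DESeq2, among them Mki67 at 2.18 to 57.6 against 13.8 to 21.8 (adjusted p = 0.433). The share of genes called over all genes was 12.6% and 11.9%, so a single call in a list of this size is near the background.

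**Figure D4:**
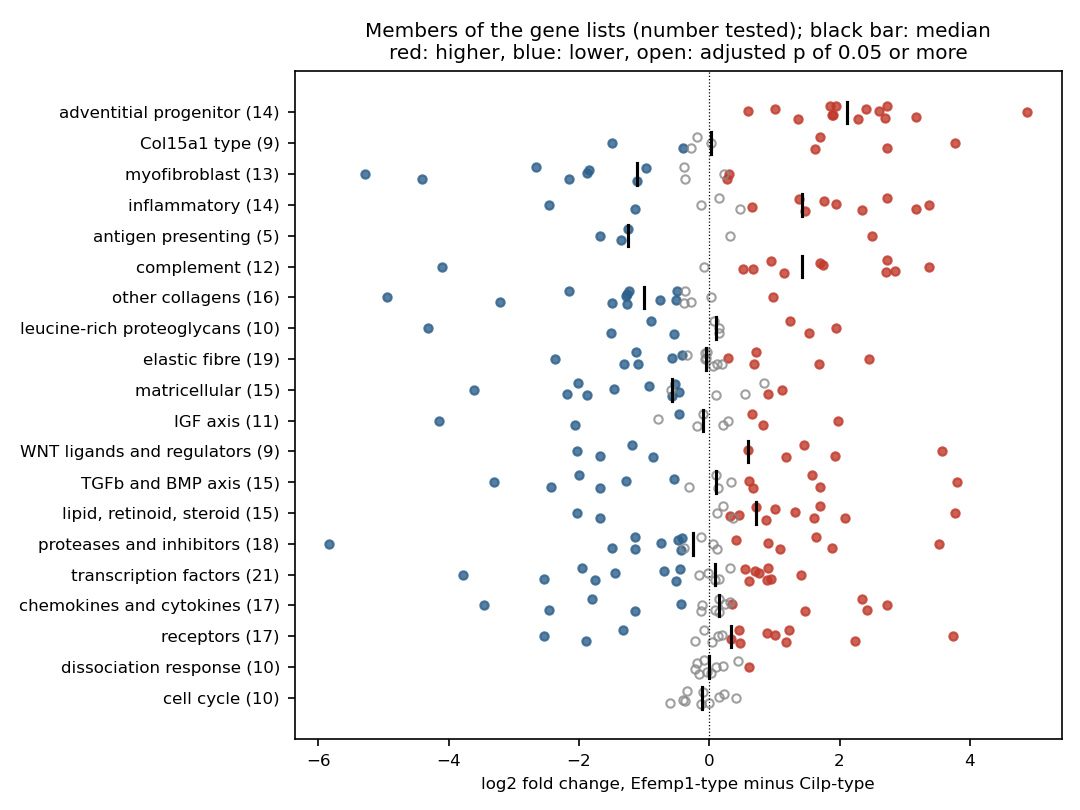
Log2 fold changes between the kinds (horizontal axis, Efemp1-type minus Cilp-type) of the tested members of 20 gene lists (rows, with the number tested), in red where higher, blue where lower and open where the adjusted p was 0.05 or more, with black bars for medians. The adventitial progenitor row lies wholly above 0 (median 2.11), the collagen row mostly below it (median -0.996), and the cell cycle row has no filled point.

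How common these genes were among single cells was compared after thinning every cell to 2000 UMIs. Ly6a had a UMI in 70.6, 97.3, 92.9, 98.2 and 97.5% of Efemp1-type cells, in 32.3 to 50% of Cilp-type cells and in 4.05 to 8.91% of epithelial cells, given for comparison. C3 had one in 75.4 to 81.1%, 9.32 to 14.1% and 1.43 to 3.99% of these cells. Pi16 was found in 50.6 to 83.8% of Efemp1-type and 38.1 to 52.8% of Cilp-type cells, ranges that met, and in at most 0.562% of epithelial cells. Without thinning, Pi16 had a UMI in 94.3, 97.4, 82, 92.5 and 81% of Efemp1-type cells and Dpp4 in 54.3, 78.9, 58.1, 79.7 and 70.9%, against 8.82, 32.4, 31.3, 42.7 and 32.3% for Dpp4 when thinned. Median depths before thinning were 11160 to 18965 UMIs in Efemp1-type and 10255 to 13417 in epithelial cells. The thinned shares rest on 34, 37, 211, 227 and 158 Efemp1-type cells.

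**Figure D5:**
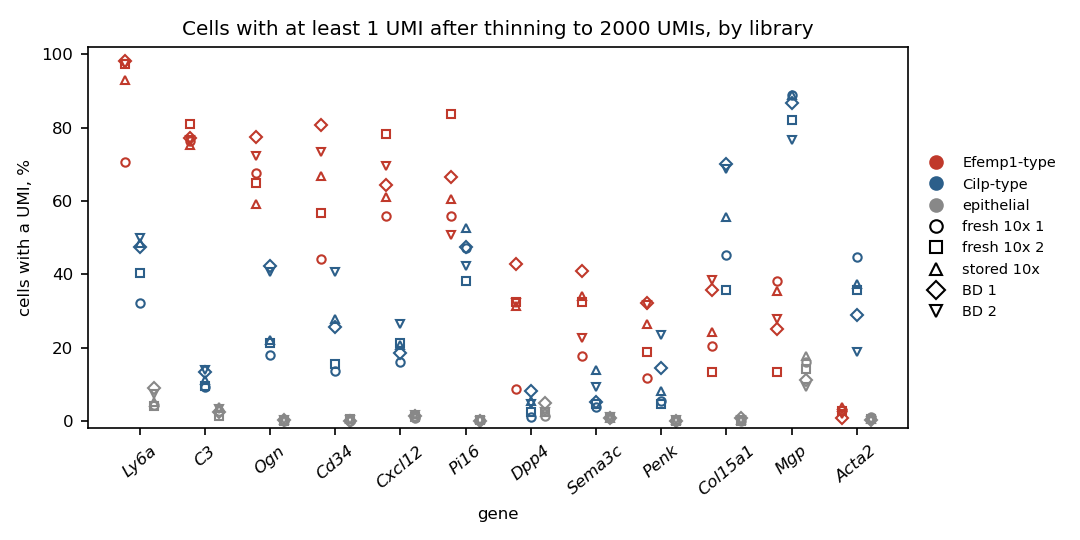
Percent of cells with at least 1 UMI (vertical axis) of 12 genes after thinning to 2000 UMIs, in Efemp1-type (red), Cilp-type (blue) and epithelial cells (grey), a symbol per library. C3 lies at 75.4 to 81.1% in Efemp1-type cells and at 9.32 to 14.1% in Cilp-type cells, Pi16 ranges meet, and Mgp is more common in Cilp-type cells.

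Efemp1-type cells also varied among themselves. Of 625 genes outside the rule with at least 200 CPM, the 10 with the most variance beyond counting noise within libraries were Saa3, Reg1, Csn3, Mgp, Penk, Gas6, Lcn2, Ctgf, Cxcl14 and Igfbp5. Relative to the squared mean, this excess variance was 0.365, 0.0057, 0.564, 14.7 and 14.6 for Csn3. For Lcn2 it was 0.446, -0.0495, 1.41, 7.74 and 10.8. The ranks of Csn3 and Lcn2 thus rested mostly on the BD libraries. Saa3 and Reg1, a secreted lectin of regenerating tissue, came from few cells: the top 10% of cells held 90.9, 91.3, 99.8, 97 and 97% of the Saa3 UMIs and 95.2, 100, 100, 96.8 and 100% of the Reg1 UMIs. Mgp, an inhibitor of calcification, had a UMI in 13.5 to 38.2% of thinned Efemp1-type cells and 76.6 to 88.9% of Cilp-type cells, and Penk, proenkephalin, in 11.8 to 32.2% and 4.76 to 23.4%. The milk protein gene Csn3 and the lipocalin gene Lcn2 are epithelial, with a UMI in over 95% of thinned epithelial cells (95.2 to 97.2% and 96.9 to 99.3%). Csn3 had a UMI in 32.4, 51.4, 62.1, 30 and 28.5% of thinned Efemp1-type and 27.9, 31, 56.9, 38.1 and 32.8% of Cilp-type cells, and Lcn2 in 35.3, 32.4, 48.8, 25.1 and 22.2% and 17.4, 26.2, 50, 25.8 and 17.2%. Igfbp5 was likewise most common in epithelial cells, with a UMI in 89 to 94.3% of them when thinned. It had one in 20.6 to 47.1% of Efemp1-type and 37.5 to 59.7% of Cilp-type cells.

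The adventitial and the Col15a1-type lists varied against each other among Efemp1-type cells. In cells thinned to 2000 UMIs, the 14 adventitial genes summed to medians of 10, 16, 15, 25 and 20 UMIs, and the 10 genes of the other list, Npnt included, to 7, 6, 7, 8 and 9.5. Across cells, Spearman's rho between these sums was -0.33, -0.12, -0.38, -0.50 and -0.41. The sign was the same in all 5 libraries. The points share each cell's fixed total, in which more of one gene leaves room for less of another, so these values are a description. With the digestion genes, the adventitial sum had rho of -0.12, 0.03, -0.35, -0.32 and -0.17, and the Col15a1-type sum -0.17, -0.20, 0.31, 0.37 and 0.39. In stored 10x and both BD libraries, cells with more digestion-gene UMIs thus had more of the Col15a1-type list and less of the adventitial list, and the part of handling in the opposition of the lists was not tested.

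The difference between the kinds was compared between platforms by an interaction term over the 10 sums. Of 9468 genes, 2 (0.0211%) had a larger Efemp1-type minus Cilp-type difference on BD than on 10x and 0 (0%) a smaller one by edgeR, with 563 at an unadjusted p under 0.05. DESeq2 gave 3 and 12. Atf3, a stress-induced transcription factor, stood at 45.9, 30.5, 115, 142 and 78.8 CPM in Efemp1-type and 47.8, 60.6, 154, 44.6 and 35.6 in Cilp-type cells (interaction log2 fold change 1.88 ± 0.26 SE, adjusted p = 0.0492). Cxcl2, a neutrophil chemokine and the other gene, named after its value was seen, stood at 4.37, 3.39, 13.7, 37 and 33 against 2.34, 6.82, 96.8, 8.17 and 16.2 (interaction log2 fold change 4.14 ± 0.56 SE, adjusted p = 0.0492). The contrast turned mostly on stored 10x, where Cxcl2 of Cilp-type cells was far above that of all other sums, and without that library its interaction was 1.83 (adjusted p = 0.677). Without possible doublets it was 1.54 (adjusted p = 0.851). Of the 24 genes named in the comparison of the kinds, 0 passed this test by edgeR, 13 had an unadjusted p under 0.05 and 2, C3 and Acta2, passed by DESeq2.

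Between platforms, the levels within Efemp1-type cells were compared over the 3 10x and 2 BD libraries. Of 10764 genes, 1372 (12.7%) were higher and 1633 (15.2%) lower on BD by edgeR's quasi-likelihood test, and 1850 and 1295 without TMM scaling, which moved the median log2 difference of all genes to 0.14. BD 1 against the fresh 10x libraries alone gave 142 and 241. Thy1, a surface glycoprotein used to sort fibroblasts, stood at 148, 83, 163, 1464 and 1125 CPM (log2 fold change 3.13 ± 0.26 SE, adjusted p = 2.03e-05), and Plau, the urokinase plasminogen activator, at 13.1, 10.2, 32.1, 306 and 262 (log2 fold change 3.48 ± 0.30 SE, adjusted p = 2.29e-05). Malat1, a nuclear noncoding RNA, stood at 16292, 21743, 31275, 787 and 838 (log2 fold change -4.96 ± 0.32 SE, adjusted p = 3.57e-06), and the ribosomal protein gene Rps10 at 2937, 3006, 2400.3, 56.2 and 40.4 (log2 fold change -5.98 ± 0.27 SE, adjusted p = 4.05e-07). Cilp-type cells showed a like gap, with Thy1 there at 79.6, 123, 153, 1169.8 and 995 and Malat1 at 19408, 23457, 34922, 778 and 880.1. Atp5o and Atp5mpl, called higher, stood at 0 on 10x, and Atp5o.1 and Fam46a, called lower, stood at 0 on BD. The names Atp5o and Atp5o.1 differ only by a suffix and were not merged here. Sept2 (4.37, 5.08, 9.58, 410.0 and 415) was near 0 on 10x. The matrices of the platforms list different sets of gene names. A name absent from a matrix entered the fit as 0, so the counts of genes above include any such names. The part of annotation in such gaps was not tested.

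Some of the genes that set the kinds apart were also called between the platforms. Of the 12 named rises, 2 were higher on BD (Vegfd and Npr1), 4 lower (Fabp4, Sfrp4, Sbsn and Lbp) and 6 did not pass, and without TMM Fabp4 missed the threshold too (adjusted p = 0.0696). C3 differed by -0.25 ± 0.19 SE (log2, adjusted p = 0.361). Of 14 adventitial genes, 5 were higher, among them Cd34 and Ly6c1, and 2 lower, Wnt2 and Pi16, on BD, with Pi16 at an adjusted p of 0.075 without TMM. Over all genes tested, 12.7% were higher and 15.2% lower on BD. The 2 of 12 higher and the 2 of 14 lower are near these shares. The genes of contraction Tagln (log2 fold change -1.93 ± 0.33 SE, adjusted p = 0.00154) and Acta2 (log2 fold change -2.44 ± 0.30 SE, adjusted p = 0.000205) were lower on BD in these cells, as was Igfbp2. Without BD 2 the calls of Fabp4, Sfrp4, Lbp, Pi16 and Wnt2 were lost, and without BD 1 those of Fabp4 and Igfbp2. Fabp4 also missed the threshold without fresh 10x 1 or stored 10x, and Igfbp2 and Pi16 without fresh 10x 2. Without stored 10x, whose values lay between, the log2 difference was 3.01 for Npr1 and 4.48 for Plau. Where BD 1 or BD 2 was left out, 521 and 624 or 567 and 750 genes were higher and lower.

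Storage can only be described, since stored 10x was a single library. A fit that assumes it to vary like the other groups, with 1 residual degree of freedom, passed 76 (0.666%) of 11412 genes as higher and 32 (0.28%) as lower than the 2 fresh 10x libraries by edgeR, with 798 at an unadjusted p under 0.05, and 27 and 11 by DESeq2. The naming rule took genes from these calls. For single genes, the values and log2 differences are given here without a p, and they compare these libraries, not conditions. Scg3, a granule protein of secretory cells, stood at 2.18, 13.6, 109, 119 and 158 CPM (stored minus fresh 3.66), and Nr4a1, an immediate-early nuclear receptor, at 32.8, 8.47, 84.6, 187 and 133 (2.12). Rps28 stood at 504, 625, 2949, 1941 and 2459 (2.38), a ribosomal protein gene with low values in the fresh Cilp-type cells as well (398, 551, 2155, 1710.4 and 1974). For Scg3 and Rps28, stored 10x lay nearer to the BD libraries than to the fresh ones.

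Other differences of stored 10x stood beside markers of other cells. The epithelial genes Lalba, a milk protein (8.74, 16.9, 67.1, 171 and 162 CPM; 2.33), and Wfdc18 (72.1, 84.7, 313, 221 and 139; 1.98) had higher values in stored 10x, whose summed epithelial markers in Efemp1-type cells were 1065 against 343 and 447. Wfdc18 is itself among these markers, so its rise is part of that sum. Cd74 (2.93) and H2-Aa (3.77) also had higher values in stored 10x, with macrophage markers at 72.1 against 15.3 and 20.3. Their part in these differences was not tested.

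Genes with lower values in stored 10x included some that were also lower in Efemp1-type than in Cilp-type cells. Igfbp2, given above, differed by -3.64 on the log2 scale, and Cpxm2, a carboxypeptidase-like protein, stood at 166, 27.1, 15.8, 28.8 and 24.9 CPM in Efemp1-type and 607, 726, 359, 383 and 271 in Cilp-type cells (-2.55). Reg1 stood at 2081, 1089.6, 269.6, 202 and 192 (-2.56) and its relative Reg3g at 441, 144, 53.7, 113 and 20.6 (-2.43), with Reg1 coming from few cells. Igfbp3 stood at 439, 16.9, 27.5, 13.9 and 13.6 (-3.02), and only fresh 10x 1 stood apart. Its difference was -0.13 when only cells at least 3 UMIs per 10000 from the dividing line were kept. Cilp-type cells were 165 of 216 and 87 of 136 fibroblasts in the fresh libraries and 75 of 296 in stored 10x, and whether their RNA reached the Efemp1-type sums was not tested. Of the 12 named rises, Npr1 differed by 1.38, Prg4 by -0.98 and C3 by 0.24.

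The share of a gene's UMIs that lay in Efemp1-type cells shows how far it marks them in the whole tumour. Of all UMIs in a library, Efemp1-type cells held 83.7 to 93.8% of Prg4, 78.5 to 91.8% of Vegfd, 82.1 to 95.5% of Sfrp4 and 60.8 to 91.1% of Pcolce2, with C3 at 56.7 to 84.9%. They held 1.24 to 47.7% of Fabp4, 6.23 to 46.9% of Scara5 and 5.55 to 26.4% of Lbp, which other cells of the tumour therefore also carried. For the lower genes the shares were 0.0995 to 0.291% of Col11a1, 0.493 to 4.48% of Tagln and 0.497 to 4.65% of Acta2. Cilp-type cells held 2.39 to 11.3% of Col11a1, so most of its UMIs lay outside both kinds of fibroblast. Of Tagln and Acta2, Cilp-type cells held 44.4 to 77.9% and 21.2 to 62.1%. Shares in Efemp1-type cells move with their number, which was lowest in the fresh 10x libraries.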

How the data were processed

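Single-cell matrices were analysed for 5 libraries (29166129, 30027178, 53381382, 59957945 and 49966022 UMIs in the order used above). The authors deposited raw UMI counts per gene and cell, per the file headers as whole numbers. The submitters' processing notes name Cell Ranger 3.0.1 and mm10, with no role given. The rest of the upstream processing is not given in the sources used here. All cells of the deposited matrices were used, and no doublet caller was run. In place of one, an alternative leaves out cells with 5 or more UMIs per 10000 of endothelial and leukocyte genes.

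Each library and kind was summed, which gave 457903 to 4590652 UMIs in Efemp1-type and 926005 to 2134403 in Cilp-type sums. Of 42562 gene names in the matrices, 41028 remained once spellings of a symbol were merged. edgeR 4.0.16 in R 4.3.3 (filterByExpr, TMM, quasi-likelihood test) was the main test and DESeq2 1.42.0 an alternative, at an adjusted p of 0.05. The code was checked on simulated data. Named genes are the 12 largest rises and falls that passed, went the same way in all 5 libraries and had at least 50 CPM on average (5 each way for other comparisons, without the rule on direction), unnamed gene models left out, and the list members with the largest called changes; further list members were named after their values were seen. A few genes that these rules select are not reported here. The members, the 20 gene lists and the tests were chosen with earlier results of these data known. Alternatives changed the test, the filter, the scaling, the cells, the margin of the rule, the block and the libraries. Gene positions are from GENCODE M21 (GRCm38). Epithelial cells for comparison had at least 30 Krt8, Krt18 and Epcam UMIs and under 5 collagen UMIs per 10000.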

Additional observations from a re-analysis of the deposited data

Results flagged for a closer look

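The difference between Efemp1-type and Cilp-type cells was itself different between the platforms for 2 genes, by the interaction test. For Atf3 the difference was larger on BD by 1.88 (log2), and for Cxcl2 by 4.14, each with an adjusted p of 0.0492 by edgeR. Atf3 did not pass in 6 of its 11 alternatives, and Cxcl2 did not pass in 7 of 11. The number of genes in 2000 UMIs went opposite ways. Efemp1-type cells had more genes than Cilp-type cells by a mean of 41.8 in the BD libraries and a mean difference of -40.7 in the 10x libraries, every library following its platform. That difference between platforms was not tested.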

How the results depend on the processing

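In the comparison of the kinds, the 24 named genes were refitted under 14 alternatives, and 335 of 336 values kept direction and call, with Igfbp2 without the block as the exception. Of 171 called list members, 0 changed direction, and 152 to 163 still passed when any 1 library was left out. The counts moved with the library block (449 higher and 451 lower without it) and with the 10x libraries alone (696 and 652). Leaving out 1 library gave 847 to 1114 higher and 754 to 1086 lower. The interaction counts moved most. They were 44 and 60 with no filter, 0 higher without possible doublets, 0 higher with the margin of 3, and 12 lower by DESeq2. Leaving out 1 library gave 0 to 7 higher and 0 to 32 lower, the largest without stored 10x. Between platforms, leaving out 1 library gave 521 to 1294 higher and 624 to 1530 lower, and BD 1 against fresh 10x, an alternative chosen after seeing the data like the fits by platform, gave 142 and 241. Where this leaves 1 BD library, that library is assumed to vary like the others. Storage gave 27 and 11 by DESeq2. It was not refitted without a fresh library, since no residual degree of freedom would remain. Among shares of fibroblasts, that of fresh 10x 2 moved to 37.0% in the pooled matrix, beyond its interval. The causes were not tested. The comparison of the kinds was paired by library, and without that pairing 69 of the 171 list members did not pass. Between the study's groups, no paired analysis was possible because no 2 of them share 2 replicate numbers. The 35 and 38 cells of the fresh libraries limit what can be said of low genes there.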

Other observations

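Several other list members had other values in the Efemp1-type cells of the single stored 10x library than in both fresh ones, given here with the log2 difference and no test. They were chosen after their values were seen. Higher were Has1, a hyaluronan synthase (179, 81.3, 280.4, 269 and 151 CPM; 1.12), Ltbp4, which binds latent TGF-beta (162, 122, 363, 399.9 and 351; 1.36), Igfbp5, a carrier of insulin-like growth factors (282, 141, 554, 1412 and 755; 1.40), and Cxcl13, a B cell chemokine (2.18, 3.39, 26.7, 67.5 and 21.7; 3.19). Below both fresh libraries were Cthrc1, a collagen triple helix protein (1159.6, 1247, 429, 271 and 306; -1.49), Ltbp2 (83, 86.4, 12.1, 11.3 and 15.5; -2.81), Wisp2, a matricellular protein (657, 452, 175, 253 and 243; -1.67), and the collagen cross-linking enzyme Lox (677, 1071, 410.4, 936 and 971; -1.10). For all of these but Lox, stored 10x lay nearer to at least 1 BD library than to either fresh one. Igfbp5 also had a UMI in 93.8% of thinned epithelial cells of stored 10x. Epithelial markers in Efemp1-type cells summed to 1065 CPM there, against 343 and 447 in the fresh libraries. The part of epithelial RNA in the Igfbp5 difference was not tested.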
